A study of Mus musculus with 4 samples.

Results

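The GIMAP genes are a cluster on mouse chromosome 6 that encodes GTPases of immunity-associated proteins. The cluster was taken as the rows of the deposited gene table named Gimap1, Gimap3, Gimap4, Gimap5, Gimap6, Gimap7, Gimap8 and Gimap9. All 8 were found among 53465 genes, and all 8 passed the filter on low counts that left 13528 genes tested. They were selected on their counts in these same 4 libraries, with results of the comparison below already known, so their differences between the labels are a description and no test. RNA was sequenced from splenic CD8+ T cells of mice after purification and 24 h of culture with beads carrying antibodies to CD3 and CD28, which engage the T cell receptor and its costimulator. There were 4 libraries, 2 labelled PP2Cm KO and 2 labelled WT, given as biological replicates, and all were stimulated. PP2Cm, encoded by Ppm1k, is the mitochondrial phosphatase that switches on branched-chain amino acid breakdown. The KO label names a PP2Cm-/- genotype. The labels give neither strain, age nor how the gene was removed.

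GIMAP proteins bind guanine nucleotides through a domain called AIG1 and are found mostly in lymphocytes, where several sit on intracellular membranes. They are best known for keeping lymphocytes alive: loss of Gimap5 depletes T cells in mice and rats, and loss of Gimap1 depletes mature T and B cells in mice. Their transcripts are abundant in resting T cells.

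The genotype labels need care before any direction is read. Ppm1k, the gene named by the knockout, was measured in CPM, counts per 1000000 of the library, and had 11.8 and 14.3 CPM in the libraries labelled KO, against 7.84 and 5.53 CPM in the libraries labelled WT. The library codes in the description field, which head the columns of the table, begin with the letters of the other genotype. Groups here follow the title and the genotype field, and every sign below would turn if the codes named the genotype. Library totals ran from 12967251 to 17316284 counts. All 10 CD8 T cell markers were detected, with a summed level of 3040 and 2844 CPM in the libraries labelled KO, against 3463 and 3193 CPM in those labelled WT. Summed B cell markers reached 305 and 269 CPM in the libraries labelled KO, against 426 and 367 CPM in the libraries labelled WT. Ighm made up most of that sum. Of 7 endothelial and stromal markers, Cdh5, Kdr and Col3a1 were at 0 in all libraries. The sum of that list was 18.05 and 19.04 CPM in the libraries labelled KO, against 37.5 and 30.8 CPM in those labelled WT, nearly all of it Pecam1. Erythroid and platelet markers summed to 2.33 and 3.39 CPM in the libraries labelled KO, against 4.84 and 10.01 CPM in the libraries labelled WT, with Alas2 and Gp9 at 0 in all 4. Sums of myeloid, dendritic and NK cell markers overlapped between the labels. Summed CD4 and regulatory T cell markers reached 46.7 and 40.9 CPM in the libraries labelled KO, against 39.0 and 38.2 CPM in the libraries labelled WT. Within that sum, Ikzf2 overlapped, with 24.1 and 25.9 CPM in the libraries labelled KO, against 24.2 and 15.01 CPM in those labelled WT. Zbtb7b was lower without overlap, at 9.02 and 7.06 CPM in the libraries labelled KO, against 9.53 and 16.7 CPM in those labelled WT. Cd4, Foxp3 and Cd40lg were higher without overlap in the libraries labelled KO. GIMAP genes are also used by B cells and CD4 T cells, and the part of these marker differences in the GIMAP values was not tested. In bulk RNA, fewer cells of a type and less RNA per cell cannot be told apart.

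The GTP-binding loop of the GIMAP proteins, the P-loop, holds the phosphates of the nucleotide. Its codons were searched in the coding sequence of each member, as codons for glycine, any 4 residues, glycine, lysine, and serine or threonine. No gene outside the family was searched, so the loop is not shown to be particular to it. Each of 7 members held 1 such run of 24 bases, and Gimap8, which carries repeated AIG1 domains, held 3. They are printed 5′ to 3′ in the order of the genes along the chromosome, read from GENCODE M21 transcripts (GRCm38), with the fixed codons in capitals.
Gimap8 match 1 (chr6:48650256-48650279, plus strand): GGGaaacagggcgcaGGCAAAAGT
Gimap8 match 2 (chr6:48656119-48656142, plus strand): GGGaagcgtggtgttGGGAAAAGT
Gimap8 match 3 (chr6:48658746-48658769, plus strand): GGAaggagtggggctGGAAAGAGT
Gimap9 (chr6:48677523-48677546, plus strand): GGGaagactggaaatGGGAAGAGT
Gimap4 (chr6:48690421-48690444, plus strand): GGAaaaactggagcaGGAAAGAGT
Gimap6 (chr6:48702750-48702773, minus strand): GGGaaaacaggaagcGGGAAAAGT
Gimap7 (chr6:48723524-48723547, plus strand): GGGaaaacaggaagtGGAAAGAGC
Gimap1 (chr6:48742552-48742575, plus strand): GGCaggactgggaccGGCAAGAGT
Gimap5 (chr6:48752594-48752617, plus strand): GGCaaatctggctgcGGTAAAAGC
Gimap3 (chr6:48765887-48765910, minus strand): GGCaaatctggctgcGGTAAAAGC
The runs of Gimap3 and Gimap5 were identical at every base, and those of the other members differed from one another.

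Gimap3 and Gimap5 are close copies across their coding sequences as well. Their coding sequences, of 903 and 924 bases without the stop codon, matched at 88.9% of 899 aligned bases. In the other pairs among the 7 members with 1 match, identity ran from 55.8% to 65.6%. The longest stretch that the transcripts of Gimap3 and Gimap5 share without a mismatch was 140 bases, all of it coding. It lies at chr6:48765681-48765820 on the minus strand in Gimap3 and at chr6:48752684-48752823 on the plus strand in Gimap5. It is shown because a read that falls inside it cannot be placed in 1 of the 2 genes.
Gimap3 and Gimap5: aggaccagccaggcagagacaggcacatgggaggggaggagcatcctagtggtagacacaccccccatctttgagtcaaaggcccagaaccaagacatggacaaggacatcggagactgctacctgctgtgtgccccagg
No other pair of members shared more than 17 bases without a mismatch. Of the distinct 31-base words in annotated transcripts, 335 of 2547 in Gimap3 (13.2%) and 335 of 4176 in Gimap5 (8.02%) stood in the other gene, and none of those of Gimap1, Gimap4, Gimap6, Gimap7, Gimap8 or Gimap9 stood in another member. Values of Gimap3 and Gimap5 are therefore uncertain to the extent that shared reads could be divided either way.

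The 8 genes span chr6:48647234-48770851 in GRCm38, a stretch of 124 kb that ends 8.74 Mb before Ppm1k. Along the chromosome they follow the order Gimap8, Gimap9, Gimap4, Gimap6, Gimap7, Gimap1, Gimap5 and Gimap3, with Gimap6 and Gimap3 on the minus strand and the rest on the plus strand. Gimap1 shares 1107 exon bases, or 36.0% of its merged exons, with Gimap1os on the opposite strand. No source used here says whether reads were counted by strand, so reads of Gimap1 and Gimap1os may be mixed. Gm28053, a gene model on the plus strand annotated from the start of Gimap7 into Gimap5, shares 81 exon bases with Gimap7 (3.48%), 198 with Gimap1 (6.44%) and 153 with Gimap5 (3.69%). It had 30 and 29 counts in the libraries labelled KO, against 38 and 56 in those labelled WT, few beside those of Gimap7.

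In the libraries labelled KO the lower GIMAP values lay in Gimap7, Gimap4 and Gimap6, which stand next to one another in the cluster, while the log2 fold changes of the other 5 members lay within 0.24 of 0. Gimap7 was 2.14-fold lower, Gimap4 1.53-fold lower and Gimap6 1.31-fold lower. The log2 fold changes, labelled KO minus labelled WT, were fitted across all genes with the quasi-likelihood test of edgeR. None of the 8 members passed an adjusted p of 0.05, where 28 of all genes tested did (0.207%). The libraries labelled KO were lower without overlap in 4 members and higher without overlap in 2. Over all genes tested the groups did not overlap in 44.9%, with 23.3% lower and 21.5% higher. At an unadjusted p of 0.05, 3 members passed, all lower, where 12.9% of all genes passed and 7.23% did so lower. These shares are background for a choice of members that already used the contrast, and nothing is read from them. With 2 libraries against 2, an exact permutation test of a single gene cannot give a p under 0.333.

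**Figure D1:**
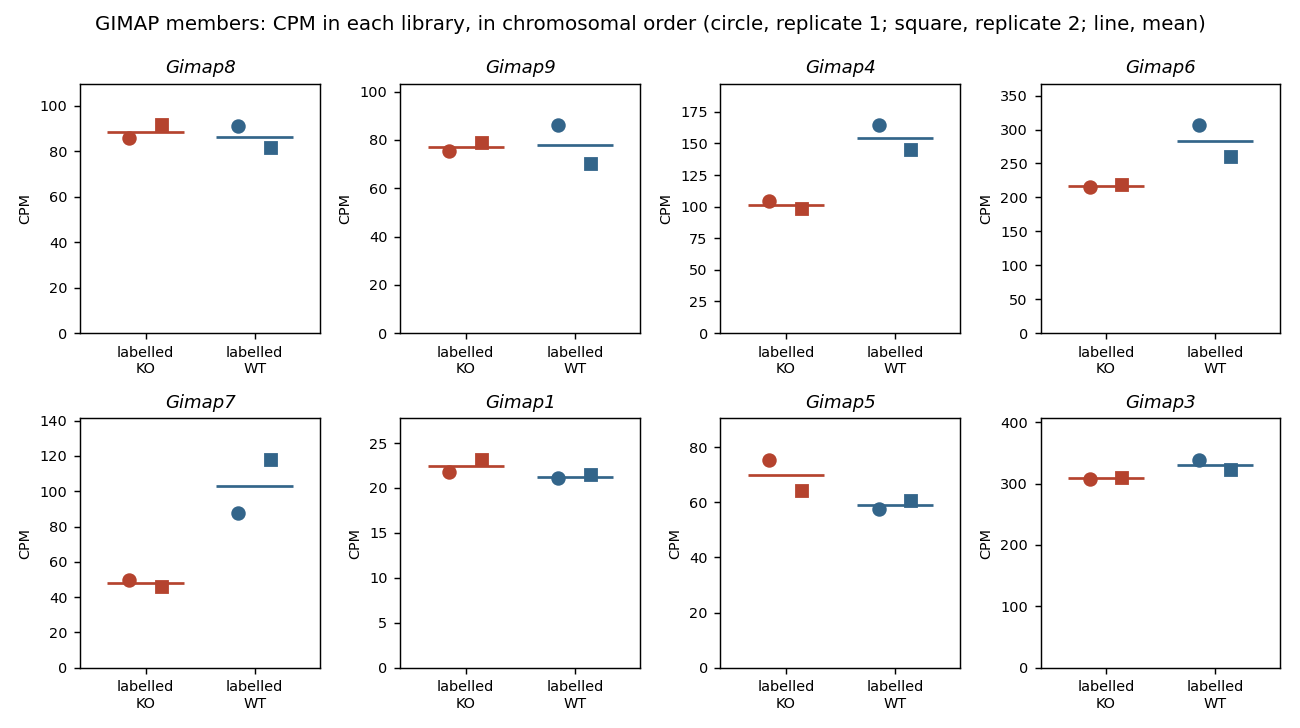
CPM of each GIMAP member in each library, scaled by TMM, with panels in chromosomal order and an axis from 0 in each panel. Circles are replicate 1, squares replicate 2 and lines the mean of 2 libraries. Gimap4, Gimap6, Gimap7 and, by a smaller margin, Gimap3 lie lower in both libraries labelled KO, and Gimap5 and Gimap1 higher.

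Gimap7 (ENSMUSG00000043931, chr6:48718621-48724636) encodes a GTPase whose human counterpart forms dimers and speeds the GTPase activity of GIMAP2. It had 50.002 and 45.9 CPM in the libraries labelled KO, against 87.8 and 117.7 CPM in the libraries labelled WT. The groups did not overlap, and the libraries labelled WT lay further apart from each other than those labelled KO. The means were 47.9 ± 2.90 CPM in the libraries labelled KO and 102.8 ± 21.2 CPM in those labelled WT (SD, n = 2 each). The log2 fold change was −1.10 (SE 0.17) with 95% limits of −1.497 and −0.70, and the adjusted p over all genes was 0.0702 by edgeR. In order of unadjusted p it was gene 62 of 13528. Several other fits called it, and these also called more of all genes. DESeq2 did so (adjusted p = 8.2e-06), with 1.9% of all genes called. So did edgeR with no filter on low counts (adjusted p = 0.0171), with 0.665% called. Other fits on all 4 libraries did not call Gimap7. These were limma on log2(FPKM + 1) (adjusted p = 0.115) and on log2(FPKM + 0.1) (adjusted p = 0.152), each with 4 genes called. Another was edgeR with RLE scaling (adjusted p = 0.0734), with 28 genes called. Leaving out labelled WT replicate 1 gave a log2 fold change of −1.29 (adjusted p = 0.00265 by edgeR), with 2.17% of all genes called. Leaving out replicate 2 of that label gave −0.87 (adjusted p = 0.0229 by edgeR), with 1.83% called. Gimap7 was not called by edgeR without labelled KO replicate 1 (adjusted p = 0.110) or labelled KO replicate 2 (adjusted p = 0.326).

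Gimap4 (ENSMUSG00000054435, chr6:48684549-48692060) encodes a cytosolic GTPase that hastens the death of T cells once apoptosis has begun. It had 104 and 98.2 CPM in the libraries labelled KO, against 164 and 145 CPM in the libraries labelled WT, with no overlap. The means were 101 ± 4.34 CPM in the libraries labelled KO and 155 ± 13.9 CPM in those labelled WT (SD, n = 2 each). The log2 fold change was −0.61 (SE 0.12), with 95% limits of −0.88 and −0.34. DESeq2 called Gimap4 (adjusted p = 0.00866), with 1.9% of all genes called, while edgeR on all 4 libraries did not (adjusted p = 0.114). In the edgeR fits that left out 1 library, the log2 fold change ran from −0.70 without labelled WT replicate 2 to −0.51 without labelled WT replicate 1.

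Gimap6 (ENSMUSG00000047867, chr6:48701582-48708225) encodes a GTPase that binds the autophagy protein GABARAPL2 and is needed for T cell survival in mice. It had 215 and 218 CPM in the libraries labelled KO, against 306 and 260 CPM in the libraries labelled WT. The groups did not overlap, though labelled WT replicate 2 lay closer to the libraries labelled KO than to its own replicate. Gimap6 averaged 216 ± 1.98 CPM in the libraries labelled KO and 283 ± 33.0 CPM in those labelled WT (SD, n = 2 each). The log2 fold change was −0.39 (SE 0.12), with 95% limits of −0.67 and −0.11. It was −0.26 when labelled WT replicate 1 was left out and −0.50 when replicate 2 of that label was.

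The membrane-bound members Gimap5, Gimap3 and Gimap1 had log2 fold changes from −0.10 to 0.24. Gimap5 (ENSMUSG00000043505, chr6:48746197-48754210), the lysosomal protein whose loss depletes T cells, had 75.3 and 64.2 CPM in the libraries labelled KO, against 57.6 and 60.5 CPM in the libraries labelled WT. Neither library labelled KO was as low as either labelled WT, and the log2 fold change was 0.24 (SE 0.14) with 95% limits of −0.09 and 0.57. It was 0.12 without labelled KO replicate 1 and 0.36 without labelled KO replicate 2. Gimap3 (ENSMUSG00000039264, chr6:48764464-48770851), a mitochondrial membrane protein that acts with Gimap5 to maintain T cells in mice, had 307 and 309 CPM in the libraries labelled KO, against 338 and 322 CPM in the libraries labelled WT, a log2 fold change of −0.10 (SE 0.10). Gimap1 (ENSMUSG00000090019, chr6:48739054-48743795) had 21.8 and 23.1 CPM in the libraries labelled KO, against 21.1 and 21.4 CPM in the libraries labelled WT, a log2 fold change of 0.08 (SE 0.15). The 95% limits leave room for a log2 difference of up to 0.57 in Gimap5, −0.34 in Gimap3 and 0.43 in Gimap1. With the counts of Gimap3 and Gimap5 summed before the fit, the log2 fold change was −0.04 (SE 0.10). Most counts in that sum are those of Gimap3.

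The remaining members had overlapping groups. Gimap8 (ENSMUSG00000064262, chr6:48647234-48660875) had 85.6 and 91.4 CPM in the libraries labelled KO, against 91.2 and 81.4 CPM in the libraries labelled WT, a log2 fold change of 0.04 (SE 0.12). Gimap9 (ENSMUSG00000051124, chr6:48676129-48679114) had 75.3 and 78.8 CPM in the libraries labelled KO, against 86.1 and 69.9 CPM in the libraries labelled WT, a log2 fold change of −0.02 (SE 0.14). The sign of both turned in other fits. Gimap1os, the antisense transcript at Gimap1, had 17.8 and 17.1 CPM in the libraries labelled KO, against 17.7 and 16.2 CPM in the libraries labelled WT.

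**Figure D2:**
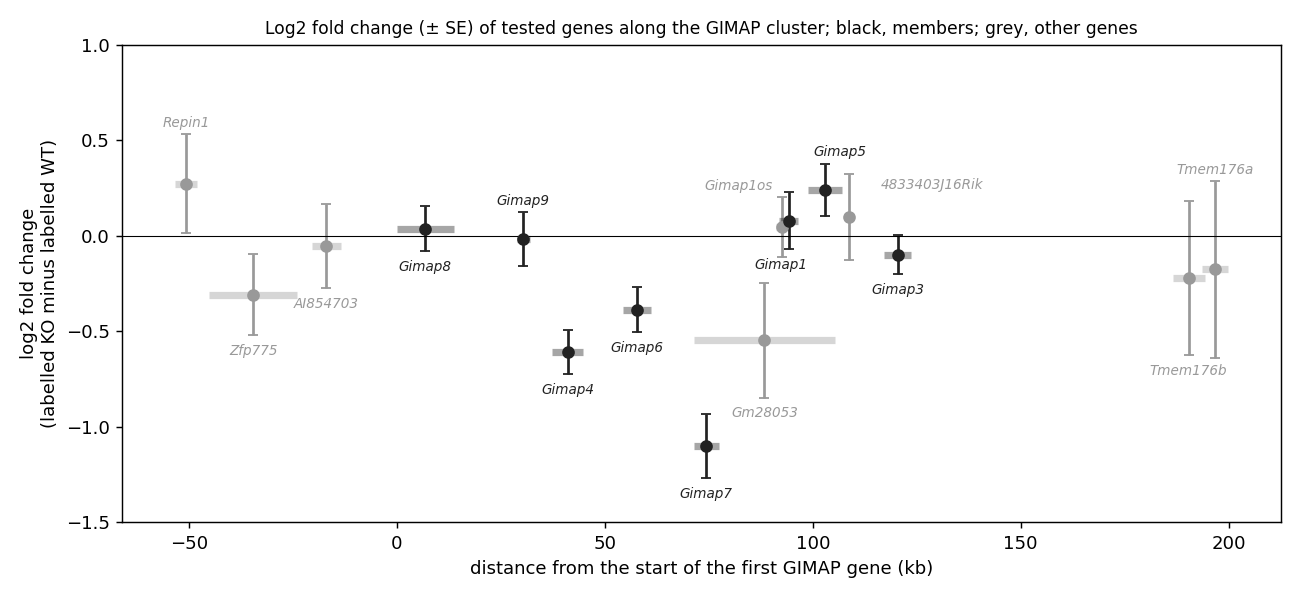
Log2 fold change, labelled KO minus labelled WT, of each tested gene against its distance in kb from the start of Gimap8, the first gene of the cluster. Points are gene midpoints with their SE, thick bars span the gene, members are black and other genes grey. Gimap4, Gimap6 and Gimap7 are neighbours and lie at −0.61, −0.39 and −1.10, while the nearest members on either side, Gimap9 and Gimap1, lie at −0.02 and 0.08.

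As a family, the 8 genes summed to 935 and 929 CPM in the libraries labelled KO, against 1153 and 1078 CPM in the libraries labelled WT. Their median log2 fold change was −0.06, with 3 positive and 5 negative, beside −0.01 over all genes tested. The median hides unequal members. Gimap7 made up 5.35% and 4.94% of the family's CPM in the libraries labelled KO, against 7.62% and 10.9% in the libraries labelled WT. Gimap3 made up 32.9% and 33.3% in the libraries labelled KO, against 29.3% and 29.9% in the libraries labelled WT. Over the 4 libraries, the members whose centred log2(CPM + 1) lay closest were Gimap8 and Gimap9, at a Euclidean distance of 0.109. Gimap4 lay 0.237 from Gimap6 and 0.632 from Gimap7, and no member lay closer to Gimap7 than Gimap4 did.

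Levels between genes were compared per length, first in the deposited FPKM, fragments per kilobase and 1000000 reads. Gimap3 was highest, with 74.2 and 76.5 FPKM in the libraries labelled KO, against 82.6 and 76.9 FPKM in those labelled WT. Gimap6 followed at a mean over 4 libraries of 46.04 FPKM, then Gimap9 at 37.8, Gimap7 at 27.8, Gimap4 at 21.1, Gimap8 at 12.8, Gimap5 at 12.02 and Gimap1 at 3.32 FPKM. Over the 4 libraries, Gimap6 and Gimap9, Gimap9 and Gimap7, Gimap7 and Gimap4, and Gimap8 and Gimap5 had overlapping ranges, and the other neighbours in this order did not. Library by library, Gimap6 was above Gimap9 and Gimap7 above Gimap4 in all 4, and each of these pairs was apart within both labels. Gimap9 and Gimap7 were apart in the libraries labelled KO and overlapped in those labelled WT. Gimap8 and Gimap5 overlapped in the libraries labelled KO and were apart in those labelled WT.

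That order rests on the gene lengths in the FPKM. The length implied by count and FPKM exceeded the merged exon length of GENCODE M21 in all 8 members, by 16% in Gimap7 and by 230% in Gimap4. In 4 of the 8 (Gimap3, Gimap5, Gimap7 and Gimap9) it equalled, to within 1 base, the summed length of all annotated transcripts. In Gimap4, with 6 annotated transcripts, the implied length of 6062 bases equalled neither the merged exons (1837 bases) nor that sum (6685 bases). Of 10954 genes whose summed and merged lengths differ, the implied length lay within 1% of the sum in 7.93% and of the merged exons in 0.886%, so the length used is not known. Per kilobase of merged exons, a scale added after the data were seen, Gimap4 moved from rank 5 to rank 3, with 56.4 and 54.4 CPM per kb in the libraries labelled KO, against 89.8 and 77.3 CPM per kb in the libraries labelled WT. Gimap3 stayed highest at a mean of 124 CPM per kb and Gimap1 lowest at 7.11. On this scale the ranges of Gimap6 and Gimap4, Gimap9 and Gimap7, and Gimap7 and Gimap8 overlapped. In the libraries labelled KO, Gimap7 at 21.4 and 20.1 CPM per kb lay under Gimap8 at 22.98 and 25.1, while in those labelled WT it lay above it, at 37.9 and 49.7 against 24.7 and 21.6.

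**Figure D3:**
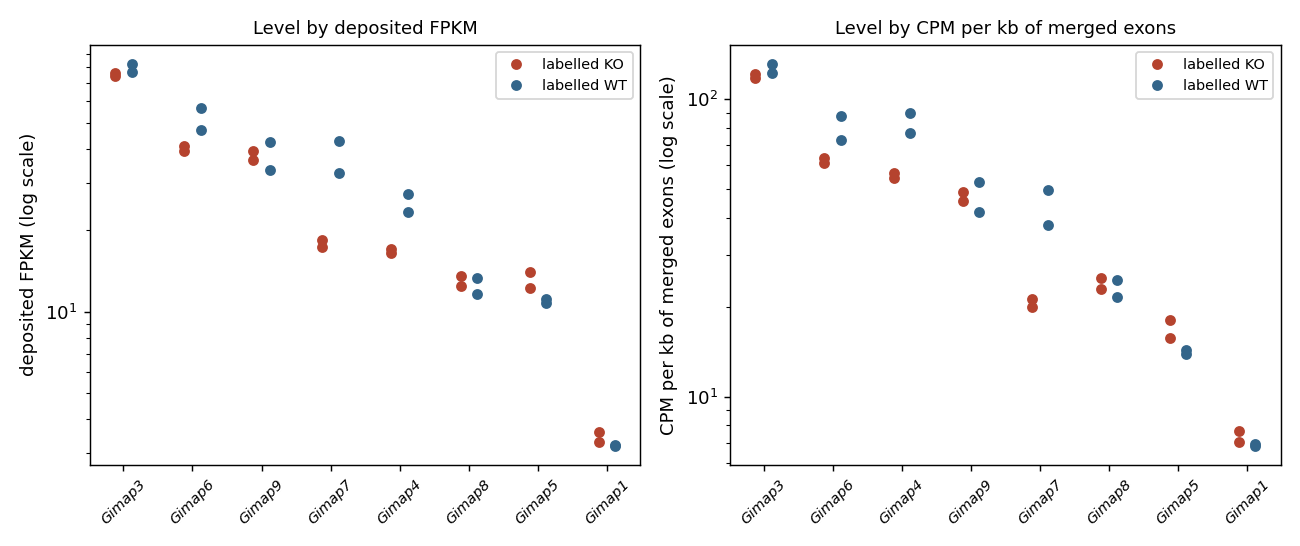
Level of each member in each library on a log axis, left in deposited FPKM and right in CPM per kb of merged exons, each panel in its own order from high to low. Each dot is 1 library. Gimap3 leads and Gimap1 is last in both panels, and Gimap4 stands at rank 5 on the left and rank 3 on the right.

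Promoters are shown for Gimap4, Gimap6 and Gimap7, neighbours picked because their log2 fold changes were the lowest of the members. Their values did not move alike in every library. From labelled WT replicate 1 to replicate 2, Gimap7 rose from 87.8 to 117.7 CPM. Gimap4 fell from 164 to 145 CPM and Gimap6 from 306 to 260 CPM. The 250 bases before each start are printed 5′ to 3′ on the strand of the gene, from RefSeq (GRCm38.p6), with matches to the motifs searched in capitals.
Gimap4 (chr6:48684328-48684577, plus strand): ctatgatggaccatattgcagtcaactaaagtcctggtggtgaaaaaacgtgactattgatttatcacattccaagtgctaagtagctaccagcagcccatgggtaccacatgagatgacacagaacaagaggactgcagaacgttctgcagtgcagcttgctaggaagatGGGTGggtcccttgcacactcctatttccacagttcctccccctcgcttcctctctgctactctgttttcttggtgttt
Gimap6 (chr6:48708245-48708494, minus strand): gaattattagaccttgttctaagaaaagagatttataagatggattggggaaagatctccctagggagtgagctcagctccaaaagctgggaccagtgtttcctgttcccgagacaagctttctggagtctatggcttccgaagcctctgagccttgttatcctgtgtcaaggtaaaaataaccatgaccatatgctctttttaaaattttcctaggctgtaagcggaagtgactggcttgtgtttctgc
Gimap7 (chr6:48718371-48718620, plus strand): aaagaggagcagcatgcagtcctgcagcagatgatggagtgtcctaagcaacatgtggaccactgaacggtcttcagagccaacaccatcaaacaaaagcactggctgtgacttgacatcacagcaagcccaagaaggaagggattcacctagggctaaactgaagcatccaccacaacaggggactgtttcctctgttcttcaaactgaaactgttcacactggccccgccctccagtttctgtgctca
The search covered 300 bases, 50 of them after the start, on both strands, in windows of all 8 members. It used GTAAACA for FOXO, TGTGGTT for RUNX, CCGGAAG for ETS, CTTTGA for TCF and LEF, and CACCC for KLF, factors tied to the resting state of T cells. The capitals in Gimap4 are a match to CACCC on the other strand, at position −79. The printed stretches of Gimap6 and Gimap7 hold no capitals because no motif matched there. Gimap4 at position 26 and Gimap7 at position 43 after the start each held CTTTGA, which 16% of 32851 windows hold, and Gimap6 held no match to any of them. GTAAACA, found in 3.65% of windows, stood in Gimap3 at position −247. CACCC stood in 5 of the 8 members, where 57.5% of windows hold it, and TGTGGTT (5.27% of windows) and CCGGAAG (8.86%) in none of the 8. A match is a stretch of letters and not a bound site.

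Because the cluster lies on the chromosome of the targeted gene, its neighbours were examined. Of 30 other genes tested within 1 Mb of the cluster, none passed the threshold by edgeR or by DESeq2, and the median log2 fold change was −0.04. Of these genes, 3 (Lrrc61, Gpnmb and Tra2a) had an unadjusted p under 0.05 by edgeR, all lower. Over all genes tested, 7.23% were lower at that p. Gpnmb had few counts, 8 and 0 in the libraries labelled KO, against 13 and 40 in those labelled WT. The nearest tested genes outside the cluster were AI854703 on the side of Gimap8 and Tmem176b on the side of Gimap3. Their log2 fold changes were −0.05 (SE 0.22) and −0.22 (SE 0.40). Within 10 Mb of Ppm1k, 82 other genes were tested. None was called by edgeR and 1, Nod1, lower by DESeq2. At an unadjusted p of 0.05, 9 were lower and 5 (Kbtbd2, Herc6, Tigd2, Gprin3 and Smarcad1) higher. Kbtbd2 lay 0.73 Mb before Ppm1k, with a log2 fold change of 0.57. Herc6 (0.47), Tigd2 (0.55) and Gprin3 (0.42) lay 0.10, 1.69 and 1.87 Mb after it, and Smarcad1 7.56 Mb after it. The nearest of the 9 lower genes, Herc3 (−0.45), lay 1.35 Mb after it. Whether distance from Ppm1k bears on these values was not tested. Of the 82, 38 were positive and 44 negative, the groups did not overlap in 21 higher and 20 lower, and the median was −0.03. Over all genes tested, 12.9% had an unadjusted p under 0.05 and 44.9% did not overlap. The median of the window was 0.02 without labelled KO replicate 1 and 0.019 without labelled WT replicate 1, so its sign is not settled. The median size of a log2 fold change regardless of sign was 0.21 in this window, 0.19 in the rest of chromosome 6 and 0.19 over all genes tested. Of all genes in that window, Nod1, which encodes a sensor of bacterial peptidoglycan, had the smallest unadjusted p, with 23.5 and 22.7 CPM in the libraries labelled KO, against 44.9 and 45.98 CPM in the libraries labelled WT. Gimap7 was next.

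**Figure D4:**
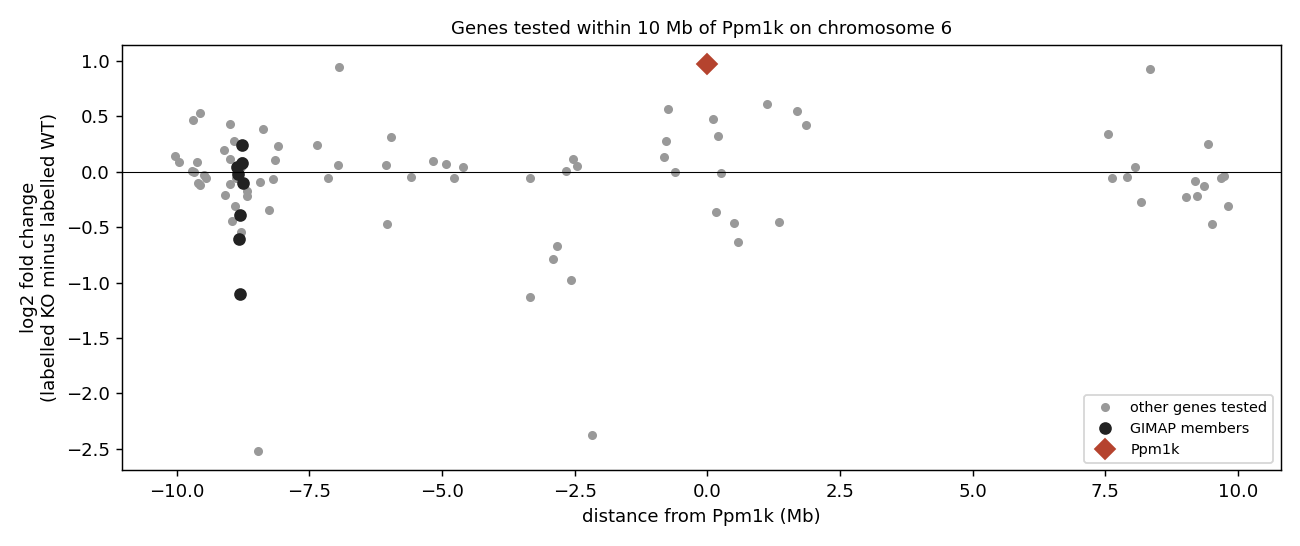
Log2 fold change, labelled KO minus labelled WT, of every gene tested within 10 Mb of Ppm1k against its distance from Ppm1k in Mb. GIMAP members are black, Ppm1k is a red diamond and other genes are grey. The other genes scatter around a median of −0.03, and the GIMAP cluster stands near the left edge.

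Gene lists around the family place its values beside those of resting and activated T cells, as counts and medians with no test of a list. The lists, here and in the next paragraph, were chosen with earlier results of these data known. Shares over all genes tested are background for that choice, and nothing is read from them. Of 24 genes of resting and quiescent T cells, 0 were called by edgeR and 5 (Klf2, Foxp1, Tcf7, Ccr7 and Txnip), all lower, by DESeq2, with 10 lower and 0 higher at an unadjusted p of 0.05. Of the 24, 19 were negative and 5 positive, with a median log2 fold change of −0.27, and the libraries labelled KO were lower without overlap in 15. Over all genes tested, DESeq2 called 1.9%, 7.23% were lower at that unadjusted p, and 23.3% were lower without overlap. Txnip, an inhibitor of glucose uptake, had 60.2 and 59.9 CPM in the libraries labelled KO, against 111 and 100.1 CPM in the libraries labelled WT. Foxp1, a transcription factor that holds T cells in quiescence, had 134 and 132 CPM in the libraries labelled KO, against 241 and 192 CPM in the libraries labelled WT. Of 17 T cell activation genes, Irf4 and Il2ra were called higher and none lower by edgeR, where 0.103% of all genes tested were called higher. DESeq2 called 4 higher (Il2, Il2ra, Irf4 and Nr4a3) and none lower. At an unadjusted p of 0.05, 7 were higher and 0 lower, where 5.7% of all genes tested were higher. Of the 17, 12 were positive and the median was 0.23. In 7 the libraries labelled KO were higher without overlap, as in 21.5% of all genes tested.

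Genes tied to GIMAP proteins in cell survival and autophagy had values in both directions. Of 15, 0 were called by edgeR or DESeq2, and 2 (Sqstm1 and Bak1) had an unadjusted p under 0.05, both lower. Among all genes tested, 12.9% had such a p and 7.23% had it and were lower. Of the 15, 6 were positive and 9 negative, and the median was −0.03. The autophagy receptor gene Sqstm1 had 139 and 129 CPM in the libraries labelled KO, against 168 and 176 CPM in the libraries labelled WT. Bak1, a pore-forming death effector, had 98.0 and 82.8 CPM in the libraries labelled KO, against 111 and 111 CPM in the libraries labelled WT. Gabarapl2, the partner of GIMAP6, had a log2 fold change of −0.03 (SE 0.16) and was chosen after its values were seen. In 12 GTPase-like genes of other immune families, the guanylate-binding proteins, the immunity-related GTPases and dynamin-like proteins, 0 were called by edgeR and 3 (Gbp2, Gbp3 and Gbp5), all lower, by DESeq2. At an unadjusted p of 0.05, 9 were lower, all 12 were negative, and the median was −0.60. The libraries labelled KO were lower without overlap in 11 of the 12. The shares over all genes tested were 1.9% called by DESeq2, 7.23% lower at that unadjusted p and 23.3% lower without overlap. Gbp3 had 16.8 and 18.8 CPM in the libraries labelled KO, against 36.1 and 32.3 CPM in the libraries labelled WT. Gbp5 had 88.6 and 105 CPM in the libraries labelled KO, against 188 and 134 CPM in the libraries labelled WT.

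**Figure D5:**
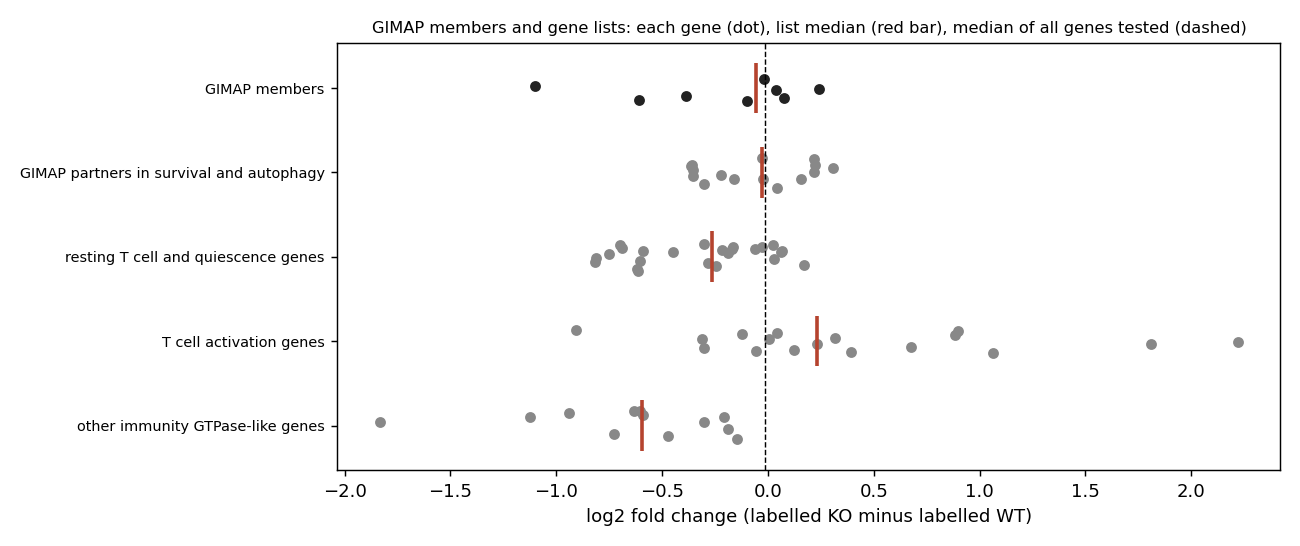
Log2 fold change, labelled KO minus labelled WT, of each gene in 5 lists, the GIMAP members on top. Dots are genes, spread at random in height for legibility, red bars are list medians and the dashed line is the median of all genes tested. GIMAP members run from −1.10 to 0.24 around a median of −0.06, resting T cell genes have a median of −0.27 and other immunity GTPase-like genes one of −0.60.

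The genes outside the family whose values over the 4 libraries lay nearest to the mean of the 8 members, among those with a mean of at least 10 CPM, were Hmgb2, Hddc2, Pacs1, Itgb2 and Gm6627. Their Euclidean distances on centred log2(CPM + 1) ran from 0.0239 to 0.0321. Hmgb2, a chromatin protein of dividing cells, had 178 and 177 CPM in the libraries labelled KO, against 216 and 207 CPM in the libraries labelled WT. Such a likeness rests on 4 values per gene. The mean blends members with log2 fold changes from −1.10 to 0.24. A gene near that mean need not resemble any single member.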

How the data were processed

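RNA was sequenced from stimulated CD8+ T cells in 4 libraries, prepared with a stranded kit per the labels' protocols. The authors deposited whole-number counts per gene and FPKM, per the file headers. The submitters' processing notes name kallisto and GRCm38; no source used here gives how reads were divided between overlapping genes, whether strand was used, or any filter. Another 8 value columns were not used. Nothing says that replicates came from separate animals beyond the words biological replicate, so p-values measure the spread between these libraries.

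Counts were filtered with filterByExpr, scaled by TMM, then fitted by the quasi-likelihood method of edgeR 4.0.16 under R 4.3.3. The contrast was labelled KO minus labelled WT, with p-values adjusted by Benjamini-Hochberg over 13528 genes. The biological coefficient of variation was 15.9%. The script was tested on simulated data. Alternatives were DESeq2 1.42.0, limma 3.58.1 on log2(FPKM + 1) and log2(FPKM + 0.1), RLE scaling, no filter, a replicate block, each library left out, and Gimap3 and Gimap5 summed. CPM are scaled by TMM, except CPM per kb, which use library totals. Transcripts and exons came from GENCODE M21 (GRCm38), promoters from RefSeq (GRCm38.p6). Coding sequences were aligned with Biopython 1.88.

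Members and gene lists were chosen with earlier results of these data known. Named genes were the 8 members, other rows named Gimap, Ppm1k, the nearest tested neighbours, called genes within 10 Mb of Ppm1k, the called or 2 lowest-p genes of each list, and the 5 genes nearest in pattern. Gm28053, Nod1 and the genes named beside a small count were chosen after their values were seen.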

Additional observations from a re-analysis of the deposited data

How the results depend on the processing

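The number of genes called over the whole table was 28, and it was 253 with DESeq2, 146 with no filter, 123 with the replicate block, 4 with limma on log2(FPKM + 1) and 4 with limma on log2(FPKM + 0.1), and 8 to 304 as single libraries were left out. Same-numbered libraries deviated from their group means with a correlation of −0.18 across genes, so the replicate numbers are not shown to pair the libraries. A block that crosses the numbers, added after seeing the data, gave 12, with 0 of the 8 members among them. Under the replicate block by the numbers as given Gimap7 passed the threshold (adjusted p = 0.0171 by edgeR), and no other member did.

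With each library left out in turn, the median of the GIMAP members lay between −0.15 and 0.0081, Gimap8 between −0.043 and 0.13, and Gimap9 between −0.16 and 0.15. Gimap7, Gimap4, Gimap6 and Gimap3 stayed negative, and Gimap5 and Gimap1 positive, in every fit run. Gimap8 turned to −0.0046 without labelled KO replicate 2 and to −0.043 without labelled WT replicate 2. Gimap9 turned to 0.0073 with limma on log2(FPKM + 1), to 0.0077 on log2(FPKM + 0.1), to 0.02 without labelled KO replicate 1 and to 0.15 without labelled WT replicate 1. The cause of these turns was not tested. A fit with 1 library of a label left takes its spread from the other label's pair.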
